A study of Mus musculus with 6 samples.

Results

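The 60 genes described here were measured in the mouse jejunum: the cytochromes P450 of families CYP1, CYP2 and CYP3, which oxidise drugs and other foreign compounds, and the receptors that sense such compounds. They were chosen by a rule on symbols that used no measured value. The rule was set with earlier results of these data known. The rule took every symbol made of Cyp, family number 1, 2 or 3, a letter and a number, plus Nr1i2, Nr1i3, Ahr and Por. It found 60 of the 22180 genes measured, 57 P450s and 3 receptors. Por had no transcript cluster that carried its symbol alone and was not analysed here.

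P450s of these families are haem enzymes of the endoplasmic reticulum that receive electrons from the reductase POR, and they make up the first step of drug clearance in liver and gut. PXR (Nr1i2) and CAR (Nr1i3) are nuclear receptors that bind DNA with RXR and raise CYP3A, CYP2B and CYP2C transcription, and AHR, with its partner ARNT, raises CYP1 transcription. In liver, HNF4A is known as a regulator of many P450 genes and of both nuclear receptors.

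Whole jejunum was taken from 6 adult mice, and total RNA from each mouse was measured on 1 Affymetrix array. Mutants (HNF4AΔIEC, n = 3) carried Hnf4a loxP/loxP alleles and a VillinCre transgene, active in the intestinal epithelium only, and the other group (n = 3) were their controls, whose own alleles are not spelled out in the sources used here. A diet rich in fat (HFD) was given to all 6 mice over 12 weeks, and all received ketamine and xylazine before sacrifice. The comparison asks how the jejunal transcriptome under HFD depends on epithelial HNF4A. Values are log2 signals, so a difference of 1 is a doubling, and they serve to compare arrays for 1 gene but not genes with each other, since probes differ in brightness.

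The medians of the 6 arrays lay between 5.53 and 5.58, and pairs of arrays correlated at 0.977 to 0.988 across transcript clusters. Hnf4a, whose probes were not placed against the deleted exons, was at 9.49, 9.25 and 9.11 in mutants, against 10.74, 10.60 and 10.57 in controls. All 26 enterocyte markers listed lay above the background level on all arrays, and their summed level did not separate the groups. Male-specific transcripts were above background on every array. Because whole tissue was used, fewer cells of a type and less RNA per cell cannot be told apart.

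Of the 60 genes, 33 lay near the floor of the array in both groups. The background level was set at 5.43, the point below which 95% of 1091 clusters for olfactory receptor genes fell. Another 4 genes were above it in 1 group only, and 23 were above it in both. By the mean over all 6 arrays, 24 genes were above background, of which 21 were P450s.

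CYP2C was the largest subfamily, with 14 genes, 5 of them above background by that mean. CYP2D held 9 genes with 3 above, CYP2J 7 with 3 above, and CYP3A 7 with 3 above. Only 1 of the 5 CYP2B genes (Cyp2b10), 1 of the 4 CYP2A genes (Cyp2a22) and 1 of the 3 CYP1 genes (Cyp1b1) were above it. Cyp1a1 and Cyp1a2, the classical targets of AHR, were near the floor in both groups, with differences of 0.16 and -0.20. All 3 receptors were well above the floor.

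**Figure D1:**
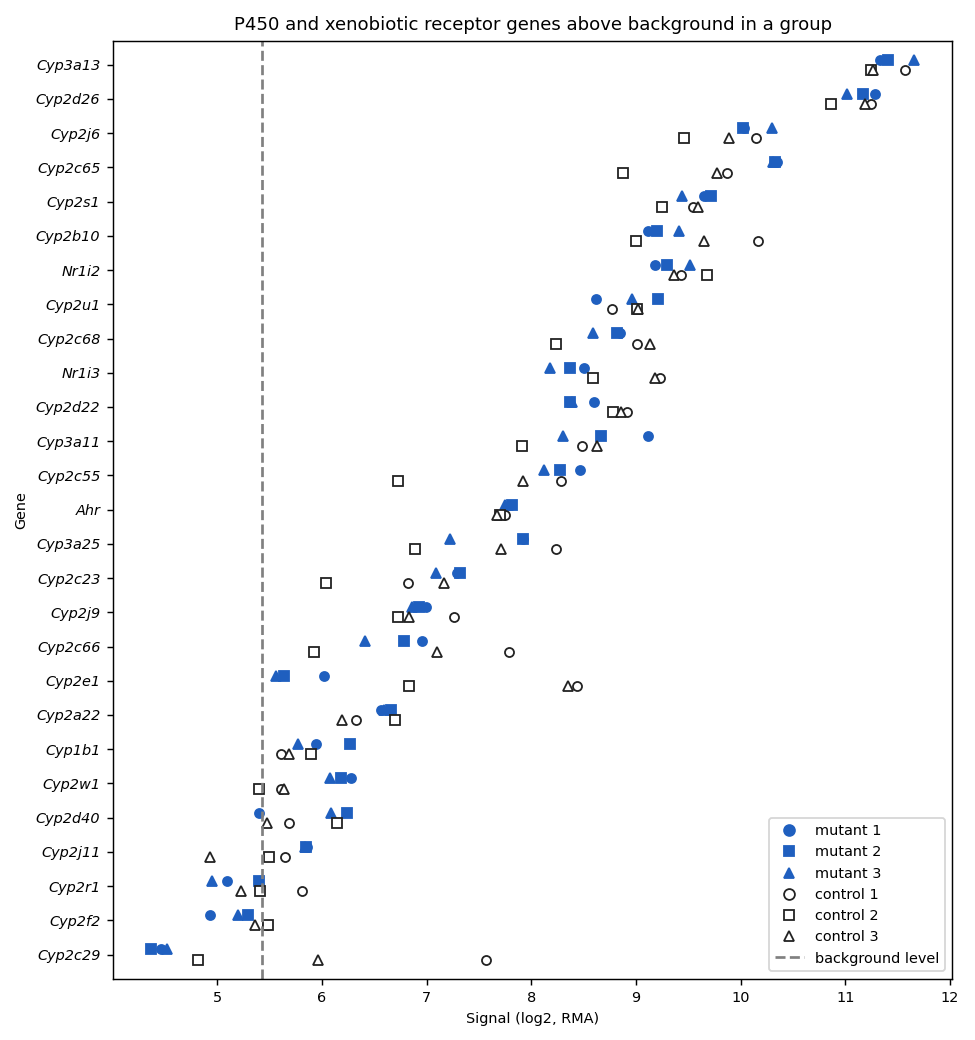
Log2 signal of the 27 genes whose mean was above background in at least 1 group, with 1 point per array (filled blue for mutants, open black for controls, shape for the replicate number) and the background level of 5.43 as a dashed line. The 3 mutant points of Cyp2e1 lie below its 3 control points, and control 2 (open square) is the leftmost point for many P450s.

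Over all 41345 transcript clusters, 0 of the 60 genes passed an adjusted p under 0.10 in limma, where 0.0121% of clusters (5) did so. At an unadjusted p under 0.05 there were 10 of 60 genes, 4 higher and 6 lower in mutants, against 6.53% of all genes. Among them, Cyp2d12 and Cyp2j5 were near the floor in both groups, and Cyp2c29, Cyp2f2 and Cyp2j11 were above it in 1 group only. When limma was run on the 23521 single-symbol clusters alone, 1 of 60 genes, Cyp2w1, was higher (0.208% of clusters), and 1, Cyp2e1, was lower (0.264%). The groups did not overlap for 10 of 60 genes, 4 higher and 6 lower, and for 14.3% of all genes, a similar share. Of these 10, Cyp2d12 (0.30) and Cyp2t4 (-0.15) were near the floor in both groups.

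Among the 24 genes above background, 9 were lower in mutants, and the median difference was 0.09. Among all 13679 genes above background, 52.7% were lower and the median difference was -0.01. Differences of the 24 genes ran from -2.13 (Cyp2e1) to 0.82 (Cyp2c65). Members thus lay on both sides of 0, with no common direction.

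**Figure D2:**
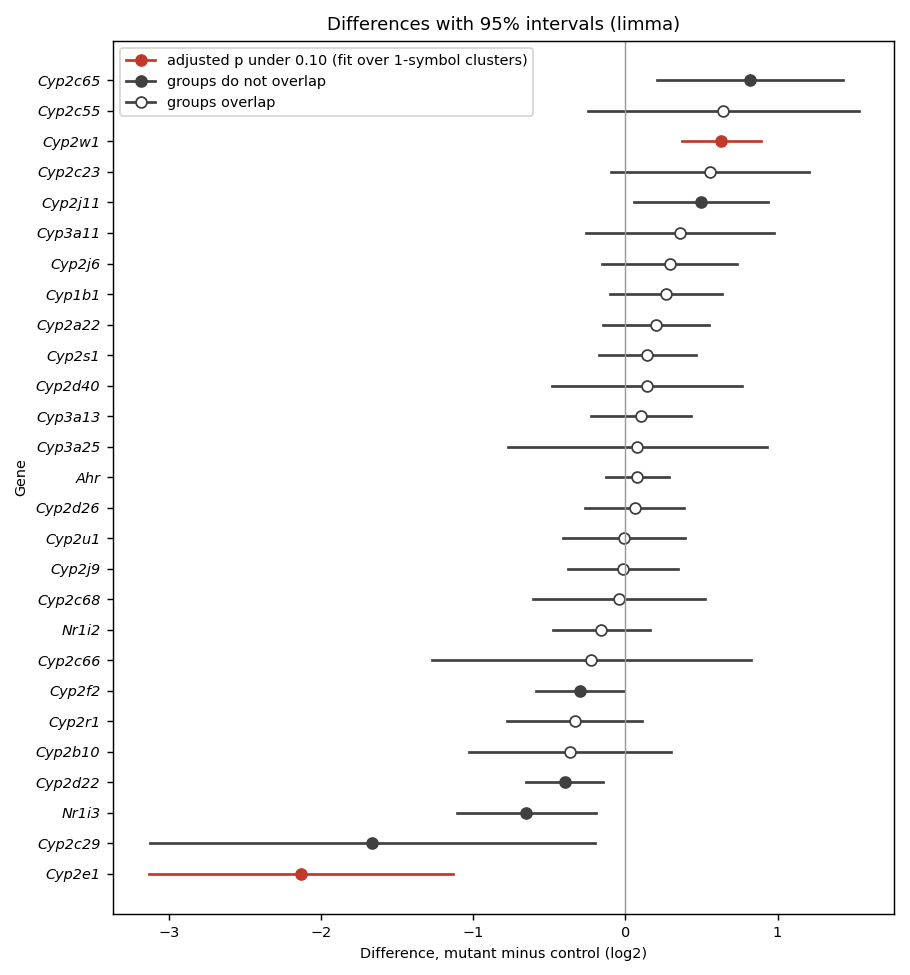
Difference in log2 signal, mutant minus control, with its 95% interval from limma over all clusters, for the 27 genes above background in at least 1 group. Filled points mark genes with no overlap between groups, and red marks the 2 genes called among single-symbol clusters, Cyp2e1 at -2.13 and Cyp2w1 at 0.63.

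Cyp2e1 encodes the P450 that oxidises ethanol and small solvents, an abundant enzyme of the liver (chromosome 7, 140763819 to 140774990, GRCm38.p6). Its signal was 6.02, 5.64 and 5.56 in mutants, against 8.44, 6.83 and 8.35 in controls. Every mutant was below every control, and control 2 stood well below the other controls. The difference was -2.13 (SE 0.421), a 4.39-fold lower level, with a 95% interval from -3.13 to -1.13. In limma the adjusted p was 0.382 over all clusters and 0.0844 over single-symbol clusters. The second call was lost when mutant 1, mutant 2, mutant 3, control 1 or control 3 was left out (adjusted p of 0.136, 0.311, 0.196, 0.295 and 0.222). Without control 2 the difference was -2.65, and the gene passed both fits (adjusted p of 0.0669 and 0.00153).

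Most markers of hepatocytes moved with Cyp2e1. Of 51 listed markers 47 were measured, and 38 of these were lower and 9 higher in mutants. Their median difference was -0.54, and differences ran from -2.90 to 0.88. Over all 22180 genes, 10492 were lower and the median difference was 0.01. Of the 47, 8 were called lower among single-symbol clusters (0.264% of clusters) and 0 over all clusters. At an unadjusted p under 0.05 in limma there were 29, 27 lower and 2 higher, against 6.53% of all genes. On the 3 mutant arrays 26, 26 and 27 of the 47 were at or below background, against 16, 23 and 14 on the control arrays. Their summed linear signal was 6054 to 7064 in mutants and 10200, 7265 and 11065 in controls, so control 2 was again the lowest control.

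Alb, serum albumin, was at 7.73, 7.05 and 6.44 in mutants, against 10.30, 8.80 and 10.38 in controls. Mup3, a major urinary protein, was at 6.67, 5.69 and 4.86 in mutants, against 9.15, 7.03 and 9.13 in controls. In both genes, as in Cyp2e1, control 2 lay between the mutants and the other controls. The part of hepatocyte RNA in the Cyp2e1 difference was not tested.

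**Figure D3:**
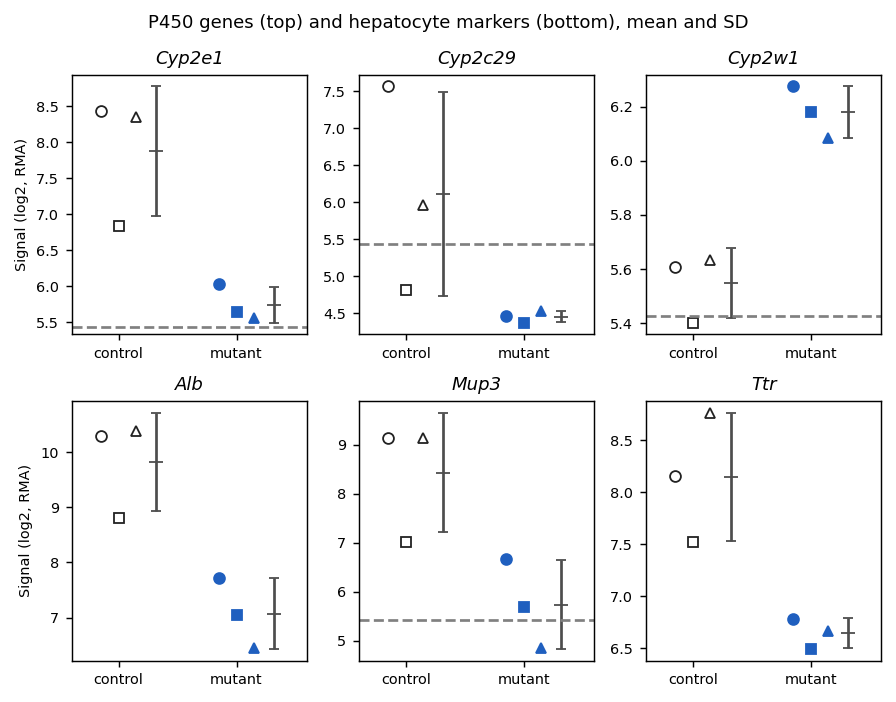
Log2 signal on each array of Cyp2e1, Cyp2c29 and Cyp2w1 (top) and of the hepatocyte markers Alb, Mup3 and Ttr (bottom), with the mean and SD of 3 mice beside the points and the background level dashed where it falls in range. Each panel has its own axis, and control 2 (open square) is the lowest control in all 6 panels.

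Cyp2c29 encodes a CYP2C enzyme best known from liver. It was at 4.46, 4.37 and 4.52 in mutants, all below background, while the controls read 7.56, 4.82 and 5.96. The groups did not overlap, but control 2 was also below background and the controls spread widely (SD 1.38). With mutants held at the background level, the gene was at least 1.61-fold lower in them, a bound that rests on control 1, since the mean of the other controls was below background. The fitted difference was -1.66 (SE 0.616), with adjusted p of 0.656 and 0.380 in the limma fits, and it was -0.94 without control 1 and -2.31 without control 2 (adjusted p of 0.528 and 0.0882 over single-symbol clusters). A second, dimmer cluster of the gene, below background in both groups, differed by 0.16.

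Cyp2f2, which oxidises naphthalene in the airway, was at 4.93, 5.29 and 5.20 in mutants, against 5.47, 5.49 and 5.36 in controls. The groups did not overlap, but all values were close to the background level and the bound was at least 1.01-fold lower in mutants. The difference was -0.30, and -0.19 without mutant 1. Its other cluster differed by -0.69 with overlapping groups.

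Cyp2w1 was the one gene of the 60 called higher (chromosome 5, 139352616 to 139359607). It encodes a P450 of the gut that is otherwise little expressed in adult tissues. Its signal was 6.27, 6.18 and 6.08 in mutants, against 5.61, 5.40 and 5.64 in controls. Each mutant was above each control, and control 2 was just below background. Every control, and the mean over 6 arrays (5.86), lay below 6.04, the point below which 99% of the olfactory receptor clusters fell. The difference was 0.63 (SE 0.110), a 1.55-fold higher level, with a 95% interval from 0.37 to 0.89 and adjusted p of 0.324 over all clusters and 0.0781 over single-symbol clusters. The second call did not hold without any 1 of the 6 arrays (adjusted p of 0.138 to 0.307), although the difference stayed between 0.56 and 0.68.

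All 14 CYP2C genes lie on chromosome 19, and they encode enzymes that act on drugs and on arachidonic acid. Cyp2c65 was at 10.34, 10.32 and 10.31 in mutants, against 9.87, 8.87 and 9.78 in controls. The groups did not overlap, the mutants agreed closely (SD 0.0157) and control 2 was well below the other controls. The difference was 0.82 (SE 0.257, 95% interval 0.21 to 1.43), with adjusted p of 0.611 and 0.295 in limma, and it was 0.50 without control 2.

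Cyp2c55 was at 8.46, 8.27 and 8.12 in mutants, against 8.28, 6.73 and 7.92 in controls. Cyp2c23, a maker of epoxides from arachidonic acid, was at 7.29, 7.32 and 7.09 in mutants, against 6.83, 6.04 and 7.16 in controls. In both genes the groups overlapped, with control 2 the lowest array by a wide margin. Their differences of 0.64 (SE 0.375) and 0.56 (SE 0.273) became 0.19 and 0.24 without control 2. A second cluster of Cyp2c55 differed by -0.10.

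Cyp2c66 was at 6.95, 6.78 and 6.41 in mutants, against 7.79, 5.93 and 7.10 in controls. Cyp2c68 was at 8.84, 8.82 and 8.59 in mutants, against 9.01, 8.24 and 9.13 in controls. For both, all 3 mutants lay between control 2 and the other controls, and the differences were -0.22 and -0.04. These took either sign when 1 array was left out, from -0.73 (without control 2) to 0.20 (without control 1) for Cyp2c66 and from -0.32 (without control 2) to 0.13 (without control 3) for Cyp2c68. The other 8 genes of the subfamily were near the floor in both groups, with differences between -0.24 and 0.03. Sequences of CYP2C genes are alike enough for probes to read neighbours, and a cluster shared by Cyp2c67 and Cyp2c68 differed by -0.25.

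Control 2 was the lowest of the 6 arrays for 5 of the 5 CYP2C genes above background and for 14 of the 21 P450s above it (66.7%). Over all 13679 genes above background it was the lowest array for 17.3%. The median SD of the CYP2C genes was 0.140 in mutants and 0.575 in controls, against 0.0968 and 0.125 over all genes. The same array had the highest summed signal of 11 smooth muscle markers (12098, against 8030 to 9607 on the other arrays), while its enterocyte sum lay within the range of the others. The part of tissue makeup in the low P450 values of control 2 was not tested.

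**Figure D4:**
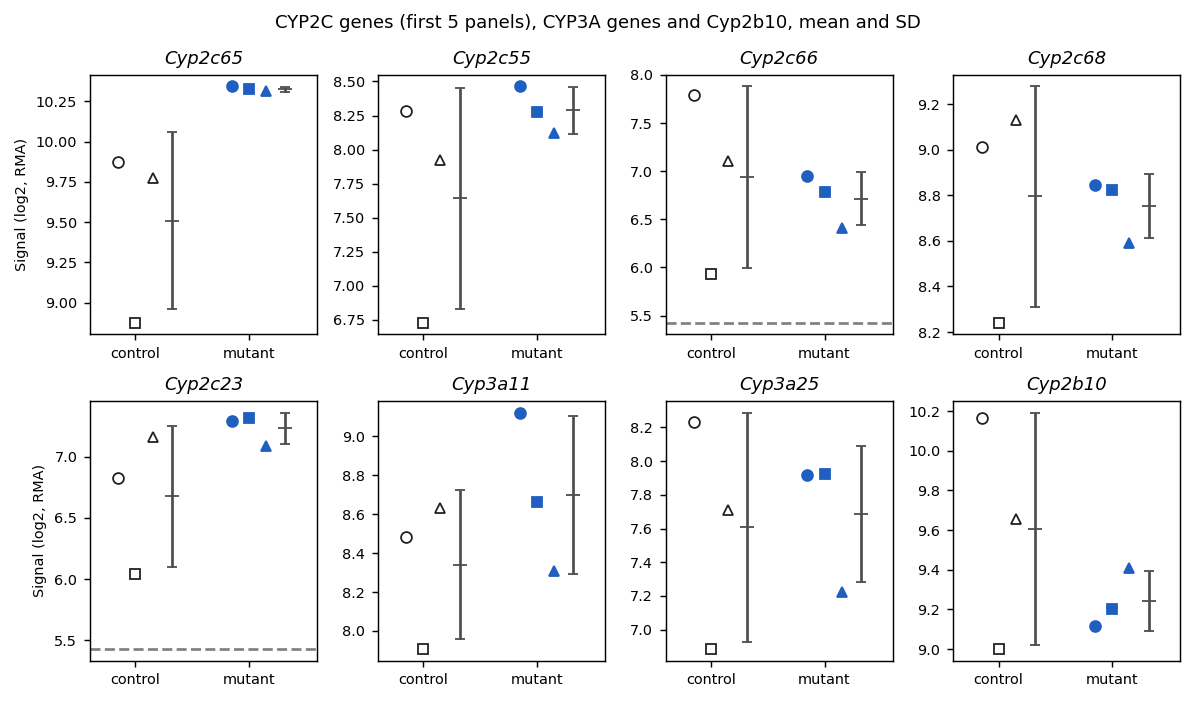
Log2 signal on each array of the 5 CYP2C genes above background, of Cyp3a11 and Cyp3a25 and of Cyp2b10, with the mean and SD of 3 mice beside the points. Each panel has its own axis, and control 2 (open square) is the lowest array in all 8.

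HNF4A binds motifs of the kind caaagtcca. The windows around the start sites of the 51 genes with a RefSeq promoter sequence were therefore searched for these letters on both strands. Each window ran from 250 bases before to 50 after the start (GRCm38.p6). CAAAGTCCA occurred in 7 of the 51 genes (13.7%) and in 0.555% of 27025 genes with a window. The 7 were Cyp2c40, Cyp2c65, Cyp2c68, Cyp2c69, Cyp2c70, Cyp3a11 and Cyp3a16, and only Cyp2c65, Cyp2c68 and Cyp3a11 of them were above background. These genes are not independent of each other, since the windows of Cyp2c40 and Cyp2c69 were 98.9% identical and that of Cyp2c68 was 93.6% identical to that of Cyp2c69. Those of Cyp3a11 and Cyp3a16 were 82.2% identical. The 100-base stretches below show the match in capitals in those 3 genes and the aligned letters in Cyp2c66, whose window was 94.5% identical to that of Cyp2c65 (256 of 271 aligned bases).
Cyp2c65, chr19:39060845-39060944, plus strand: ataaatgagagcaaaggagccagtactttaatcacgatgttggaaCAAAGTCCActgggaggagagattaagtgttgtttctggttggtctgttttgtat
Cyp2c66, chr19:39113749-39113848, plus strand: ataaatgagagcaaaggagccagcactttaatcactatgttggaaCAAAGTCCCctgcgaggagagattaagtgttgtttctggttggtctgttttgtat
Cyp2c68, chr19:39741124-39741223, minus strand: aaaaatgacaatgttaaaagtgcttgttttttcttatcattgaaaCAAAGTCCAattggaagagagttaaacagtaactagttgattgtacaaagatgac
Cyp3a11, chr5:145879909-145880008, minus strand: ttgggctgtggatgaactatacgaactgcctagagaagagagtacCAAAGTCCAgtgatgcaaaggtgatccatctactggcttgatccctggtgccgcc

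With the start site as position 0, the match began at position -116 in Cyp2c65, -77 in Cyp2c68 and -109 in Cyp3a11. Counted from the first base of the match, the Cyp2c66 letters differed from it by A9C, and no exact match was found in the rest of its window. The 3 genes with a match differed between groups by 0.82, -0.04 and 0.36, and Cyp2c66 by -0.22, none of them called in either fit. A looser form, CAAAGNNCA, was in 20 of the 51 genes (39.2%) and in 7.27% of all genes. These 20 also hold close copies, such as Cyp3a25 and Cyp3a59 (windows 96.3% identical) and Cyp3a16 and Cyp3a44 (95.9%). The nuclear receptor half-site AGGTCA was in 18 genes (35.3%) and in 18.1% of all genes, and the AHR core GCGTG in 9 genes (17.6%), Cyp1a1, Cyp1b1 and Cyp2w1 among them, and in 35.2% of all genes. A match describes the letters and does not show that HNF4A binds there.

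Cyp2e1, the gene with the largest difference, had no match to either form in its window. The search covered this window only, so the lack of a match does not show that HNF4A does not bind near the gene. Whether HNF4A acts on Cyp2e1 directly was not tested. The last 100 bases before the Cyp2e1 start hold a TATAAA motif at position -31, in capitals. TATAAA was in 25 of the 51 genes (49.0%) and in 15.7% of all genes.
Cyp2e1, chr7:140763719-140763818, plus strand: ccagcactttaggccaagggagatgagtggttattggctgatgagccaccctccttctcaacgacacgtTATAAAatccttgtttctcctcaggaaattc

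CYP3A enzymes oxidise a wide range of drugs. Cyp3a13 was at 11.33, 11.41 and 11.66 in mutants, against 11.57, 11.25 and 11.26 in controls, with a difference of 0.11 (95% interval -0.22 to 0.43) and overlapping groups. Cyp3a11, the classical target of PXR, was at 9.12, 8.66 and 8.31 in mutants, against 8.48, 7.91 and 8.63 in controls, a difference of 0.36 with overlapping groups that became 0.14 with control 2 left out, 0.15 with mutant 1 left out and 0.55 with mutant 3 left out. Signals of its close relatives cannot be fully separated, and the 2 clusters that name Cyp3a11 together with Cyp3a41a, Cyp3a41b and Cyp3a44 differed by 0.48 and 0.45, also with overlap. Cyp3a25 differed by 0.08. The remaining 4 CYP3A genes were near the floor.

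Cyp2b10, the classical target of CAR, was at 9.12, 9.20 and 9.41 in mutants, against 10.17, 9.001 and 9.65 in controls. The mutants lay between control 2 and the other controls, and the difference was -0.36 (SE 0.279), with -0.085 without control 1 and -0.67 without control 2. The other 4 CYP2B genes were near the floor.

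Cyp2d22 was at 8.60, 8.37 and 8.39 in mutants, against 8.92, 8.78 and 8.86 in controls. The groups did not overlap, and all 3 controls agreed closely. The difference was -0.40 (SE 0.106, 95% interval -0.65 to -0.15), with adjusted p of 0.540 and 0.256 in limma. Cyp2d26, the brightest CYP2D cluster, was at 11.29, 11.17 and 11.02 in mutants, against 11.24, 10.86 and 11.19 in controls, a difference of 0.06 with overlap. Cyp2d40 differed by 0.14, and the other 6 CYP2D genes were near the floor.

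CYP2J enzymes form epoxides of arachidonic acid. Cyp2j6 was at 10.03, 10.03 and 10.30 in mutants, against 10.14, 9.46 and 9.89 in controls, a difference of 0.29 (SE 0.187) with overlap, which was 0.45 without control 1 and 0.11 without control 2. Cyp2j11 was at 5.86, 5.85 and 5.84 in mutants, against 5.64, 5.49 and 4.93 in controls. Its groups did not overlap, but the control mean was below background, and its difference of 0.50 (SE 0.185) had adjusted p of 0.659 and 0.406 and was 0.28 without control 3. Cyp2j9 differed by -0.01.

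Genes of several smaller subfamilies were measured as well. Cyp2s1, an epithelial P450, was at 9.65, 9.72 and 9.44 in mutants, against 9.54, 9.25 and 9.59 in controls (difference 0.14). Cyp1b1, an AHR target that hydroxylates oestradiol, was at 5.95, 6.27 and 5.77 in mutants, against 5.61, 5.90 and 5.69 in controls (difference 0.27). Cyp2r1, a vitamin D 25-hydroxylase, was at 5.09, 5.40 and 4.95 in mutants, against 5.81, 5.41 and 5.23 in controls, around the background level (difference -0.33). In all 3 the groups overlapped, and the differences were 0.037 for Cyp2s1 without control 2, 0.13 for Cyp1b1 without mutant 2 and -0.17 for Cyp2r1 without control 1. Cyp2u1, a fatty acid hydroxylase, differed by -0.01, and Cyp2a22 by 0.20.

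Of the receptors, CAR had the largest difference. Nr1i3 (chromosome 1, 171213934 to 171218845) was at 8.51, 8.37 and 8.18 in mutants, against 9.23, 8.59 and 9.18 in controls. Every mutant was below every control, with control 2 close to mutant 1. The difference was -0.65 (SE 0.193), with a 95% interval from -1.11 to -0.19 and adjusted p of 0.593 over all clusters and 0.280 over single-symbol clusters. Without control 2 it was -0.86 with an adjusted p of 0.0572 over single-symbol clusters. Control 2 was the lowest control here, as in the summed hepatocyte markers and in 16 of the 21 P450s above background (33.0% of all genes above background). The part of hepatocyte RNA in this difference was not tested.

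Nr1i2, encoding PXR, was at 9.18, 9.30 and 9.52 in mutants, against 9.43, 9.68 and 9.36 in controls. Ahr was at 7.80, 7.81 and 7.75 in mutants, against 7.75, 7.70 and 7.67 in controls. Both pairs of groups overlapped. The differences were -0.16 (95% interval -0.48 to 0.16) and 0.08 (-0.13 to 0.29), so a change beyond 1 log2 unit in either gene lay outside the interval. Whether the difference of Nr1i3 departs from those of the other receptors was not tested.

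**Figure D5:**
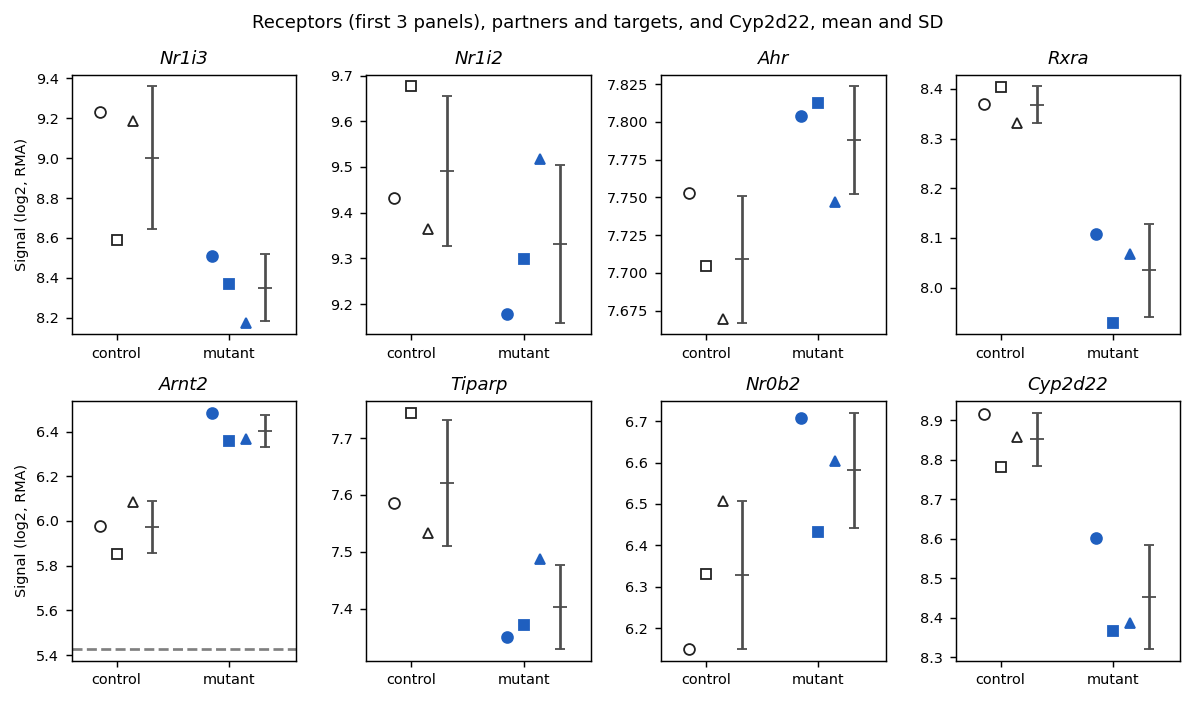
Log2 signal on each array of the 3 receptors, of the partners Rxra and Arnt2, of the AHR target Tiparp, of the repressor Nr0b2 and of Cyp2d22, with the mean and SD of 3 mice beside the points. Each panel has its own axis. Mutant and control points do not overlap for Nr1i3, Rxra, Arnt2, Tiparp and Cyp2d22.

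Genes that work with the receptors were measured for 17 of 21 listed, and 0 were called in either limma fit. In each fit 2 had an unadjusted p under 0.05, against 6.53% of all genes in the fit over all clusters. Arnt2, a relative of the AHR partner ARNT, was higher in each mutant (6.40 ± 0.07 against 5.97 ± 0.12, SD, difference 0.43, SE 0.103, adjusted p of 0.487 and 0.193). Rxra, the shared partner of PXR and CAR, was lower in each mutant (8.04 ± 0.09 against 8.37 ± 0.04, difference -0.33, SE 0.095). Tiparp, a target and repressor of AHR, differed by -0.22, and Nr0b2, encoding the repressor SHP, by 0.25 with overlapping groups.

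Genes of electron transfer and haem supply were measured for 20 of 21 listed, and 0 were called in either fit, with 0 at an unadjusted p under 0.05. The smallest p belonged to Blvrb (-0.29), Urod (0.19), Cyb5r3 (-0.17) and Cyb5rl (0.14), which act in haem breakdown, haem synthesis and cytochrome b5 reduction. Alas1, the first enzyme of haem synthesis, differed by -0.16.

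Transporters and other targets of these receptors were measured for 40 of 45 listed. None (0) were called in either limma fit. At an unadjusted p under 0.05 over all clusters there were 6 of 40, 5 higher and 1 lower, against 6.53% of all genes. Fmo1, a flavin monooxygenase, was at 6.36 ± 0.20 in mutants and 6.85 ± 0.06 in controls (SD, difference -0.50). Ces2a, an intestinal carboxylesterase, was at 11.08 ± 0.31 and 10.55 ± 0.16 (0.52), Aldh1a7, an aldehyde dehydrogenase, differed by 0.43, and Abcc3, a basolateral exporter of conjugates, by 0.28. Groups did not overlap for any of these 4, which were named for their small p. Over the whole list, groups did not overlap for 9 of 40 genes, against 14.3% of all genes.

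P450s outside families 1 to 3, which act mainly on fatty acids, sterols and bile acids, gave a comparison. Of 37 such genes 19 were above background, and 11 of these were lower in mutants. None (0) were called over all clusters, and Cyp4f40 was called lower among single-symbol clusters. At an unadjusted p under 0.05 in limma over all clusters there were 9, 8 lower and 1 higher in mutants, against 6.53% of all genes. Groups did not overlap for 13 of 37 genes, 9 lower and 4 higher. This compares with 10 of the 60 genes of the drug-metabolising families and receptors and 14.3% of all genes. Whether these shares differ was not tested.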

How the data were processed

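The deposited table held log2 values, made by the authors with the Transcriptome Analysis Console by robust multi-array averaging (RMA). RMA gives the probe intensities of all arrays the same distribution before they are summarised by cluster, and it compresses weak signals. Cluster identifiers are those of Mouse Gene 2.0 ST arrays, whereas the methods name another Affymetrix array. Of 41345 clusters, 23521 carried 1 symbol, 1820 several and 16004 none. The brightest cluster by mean over 6 arrays stood for a gene.

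Mutants were compared with controls in limma 3.58.1 (R 4.3.3), two-sided, with Benjamini-Hochberg adjustment and calls at 0.10, once over all clusters and once over clusters with 1 symbol. On simulated arrays, the check required only that shifts added to the data came back in the estimated differences. It does not bear on the calls given here. Exact permutation of 3 mice against 3 cannot give a p below 0.10. Errors are SD over mice or limma SE. The number of arrays limits precision. Values on each array were given for the receptors, called genes, the 12 smallest p among genes above background in a group, and the 5 brightest clusters. Further genes named beyond this rule (such as Cyp2b10, Cyp3a11, Cyp2c66 and Cyp2c68) were chosen after their values were seen. Members and lists were chosen with earlier results of these data known. Of 12 lists, those for distal intestine, exocrine pancreas, adipocytes, fibroblasts and smooth muscle had 0 calls in either limma fit (6, 13, 11, 12 and 11 genes measured). At an unadjusted p under 0.05 over all clusters they held 1, 1, 0, 2 and 1 genes, against 6.53% of all genes. All 11 smooth muscle markers were lower in mutants (median difference -0.25), and 11 of 12 fibroblast markers were higher (0.18). The part of tissue makeup in the P450 differences was not tested. Of 20 immune markers, Gzma and Gzmb were called lower over clusters with 1 symbol, against 0.264% of those clusters. Alternatives covered filter, normalization, variance model, array weights, threshold, pairing and leaving out each array. No source used here ties litter, cage or scan to an array, and batches were not tested.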

Additional observations from a re-analysis of the deposited data

How the results depend on the processing

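Over all clusters, 1 gene (Cyp2e1, -2.65) was called without control 2 and 2 genes (Cyp2e1, -2.13, and Cyp2w1) when only clusters with 1 symbol were fitted; leaving out 1 array gave 0 to 1 calls and Cyp2e1 differences of -2.65 to -1.85. Over clusters with 1 symbol, the 2 calls became 1 with an intensity trend and robust prior, 0 with unmoderated statistics, 0 at an adjusted p under 0.05, and 0 to 3 when 1 array was left out: 0 without mutant 1, mutant 2, mutant 3, control 1 or control 3, and 3 without control 2 (Cyp2c29, Cyp2e1 and Nr1i3). Arrays of the same number did not deviate together (correlations of -0.11, -0.01 and -0.05, against -0.07 to 0.11 for other pairs). These correlations cannot show whether such arrays shared a litter, cage or scan. With the replicate block, 1 gene (Cyp2e1) was called over clusters with 1 symbol. Cyp2d26 turned to -0.0047 without mutant 1 and -0.059 without control 2, with leave-out values of -0.059 to 0.13. The median difference of the genes above background stayed between 0.04 and 0.17 and the count lower in mutants between 6 and 11. Of 267 other values computed for the 18 genes named by rule, 262 kept direction and side of the threshold. These were set against the main fit over all clusters, where 0 of the 60 genes passed, so few could change side. The tally leaves out the fits over clusters with 1 symbol in which 1 array was dropped. The causes were not tested, apart from fewer arrays or clusters by construction. With 33 genes near the floor in both groups, changes there are compressed.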
